A study of Homo sapiens with 6 samples.

Results

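Transcripts of 7 genes that act on lipoproteins in the plasma or on their assembly were followed in the human hepatoma cell line HepG2, which retains much of the secretory program of hepatocytes. They are the hepatic and endothelial lipases LIPC and LIPG, the lipase inhibitor ANGPTL4, the microsomal transfer protein MTTP, the plasma transfer proteins PLTP and CETP, and the cholesterol-esterifying enzyme LCAT. The genes were given by name, each matched 1 row among the 23368 distinct genes of the deposited table, and all 7 were among the 14598 genes that passed the filter on low counts. The comparison is between 3 libraries of cells stably carrying a hairpin against the long noncoding RNA CHROME (shCHROME, replicates a, b and c) and 3 libraries of cells carrying a non-targeting hairpin (EV, replicates a, b and c). Both hairpins sat in the pLKO vector and were delivered by lentivirus packaged in HEK293T cells. The comparison addresses which transcripts differ between cells with this hairpin against CHROME and control cells. CHROME itself is not analysed here, and how far it was depleted is therefore not shown. All shCHROME libraries carry the same hairpin label, so loss of CHROME and other effects of that hairpin or cell line cannot be told apart.

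The liver secretes triglyceride-rich particles whose core lipid is loaded in the endoplasmic reticulum by MTTP. Once in the plasma, the particles are trimmed by lipases of 1 protein family, of which hepatic lipase acts on both triglyceride and phospholipid and endothelial lipase mainly on the phospholipid of high-density lipoprotein (HDL). ANGPTL4 is a secreted inhibitor of plasma lipases and is raised by fasting and fatty acids. LCAT esterifies cholesterol on HDL, CETP exchanges the resulting cholesteryl esters for triglyceride between particles, and PLTP moves phospholipid onto HDL.

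Recovered read totals ran from 29188213 to 35429420 per library, and whether replicates were separate cultures is not stated, so each p-value rests on a spread between libraries that may be technical. All 10 hepatocyte markers were detected, with summed levels of 1519810 to 1639450 normalized counts in EV and 1226170 to 1426680 in shCHROME. At an adjusted p under 0.05 by limma, 6 of them fell, 0 rose and 4 were not called, HNF4A among the latter. Their log2 fold changes of shCHROME over EV ran from -0.87 for AFP to 0.16, with a median of -0.25. Over all genes tested 6.87% fell and 3.64% rose. Of 10 endothelial markers 6 were under the filter, TEK among them at 0, and none of the 4 tested was called. Their summed levels were 1356 to 1382 in EV and 1229 to 1245 in shCHROME. Of 10 macrophage and blood markers 6 were under the filter, 1 of them at 0, and of the 4 tested 1 rose. Their sums were 5147 to 5214 in EV and 5617 to 7129 in shCHROME, most of it from LYZ, named after its values were seen. For the leukocyte marker PTPRC the EV libraries held 1 read in sum and the shCHROME libraries 2. Of 8 adipocyte markers 5 were under the filter, including 2 at 0 (RETN is 1 of these), and of the 3 tested 1 fell. Their sums were 351 to 413 in EV and 234 to 341 in shCHROME. Of 10 markers of embryonic kidney packaging cells 5 were under the filter, including 2 at 0, and of the 5 tested 1 fell. Their sums were 3910.4 to 4251 in EV and 3603 to 3761 in shCHROME.

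The stretch of genome just before the start of LIPC, LIPG and ANGPTL4 is shown because these 3 genes changed and differ in what their proximal promoters hold. Each window is the 250 bases before the annotated start, 5′ to 3′ on the gene's plus strand, from RefSeq on GRCh38.p14; the deposited table was made on hg19, and no coordinate of it is used. Capitals mark motif letters found on either strand. The nuclear receptor half-site was searched as AGGTCA and is written as its complement where it lies on the opposite strand. The half-site of the liver factor HNF1 was searched as GTTAAT. For the core promoter box bound by the general factor TBP the letters were TATAAA, and for the box bound by the factor NFY they were CCAAT.
LIPC, chr15:58431741-58431990: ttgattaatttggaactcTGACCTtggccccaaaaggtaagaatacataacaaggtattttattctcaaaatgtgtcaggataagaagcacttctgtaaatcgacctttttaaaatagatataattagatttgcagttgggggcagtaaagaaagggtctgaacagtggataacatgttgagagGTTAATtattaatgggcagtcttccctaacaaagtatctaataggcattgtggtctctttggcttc
LIPG, chr18:49561807-49562056: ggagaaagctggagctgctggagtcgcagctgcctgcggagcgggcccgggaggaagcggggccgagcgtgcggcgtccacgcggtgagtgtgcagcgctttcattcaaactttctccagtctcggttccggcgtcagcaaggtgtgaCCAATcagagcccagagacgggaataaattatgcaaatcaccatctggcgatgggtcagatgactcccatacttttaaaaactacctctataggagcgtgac
ANGPTL4, chr19:8363905-8364154: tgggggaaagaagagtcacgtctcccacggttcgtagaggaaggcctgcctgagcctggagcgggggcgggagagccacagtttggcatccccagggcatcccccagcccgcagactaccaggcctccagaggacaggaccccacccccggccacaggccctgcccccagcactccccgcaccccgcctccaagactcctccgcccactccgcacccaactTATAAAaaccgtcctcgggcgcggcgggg

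The LIPC window was poor in G and C, at 36.0% with 1 CpG, where the median of 35116 promoter windows was 58.0% and 11 CpG. It held AGGTCA on the opposite strand at -232 to -227 from the start and GTTAAT at -66 to -61. The LIPG window had 57.2% G and C with 18 CpG and held CCAAT at -102 to -98. The ANGPTL4 window had 68.8% G and C with 16 CpG and held TATAAA at -29 to -24. Searched on both strands of windows of the same length, AGGTCA occurred in 12.1% of all promoters, GTTAAT in 6.23%, TATAAA in 10.7% and CCAAT in 32%. The forkhead letters TGTTTAC, present in 2.98% of promoters, were in no window of the 6 matched genes; LCAT was the gene without a match. Genes that were not called held some of the same letters. Those of the nuclear receptor half-site, the TBP box and the NFY box were also found before MTTP, all in the same window, while its other window held none. The TBP letters of MTTP lay on the opposite strand at -227 to -222, far from the position of those in ANGPTL4. Those of the TBP box were also found before PLTP. Among the matched genes only LIPC held the HNF1 half-site. Whether any of these letters go with the changes was not tested. These matches describe letters only and no factor's binding was measured.

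Hepatic lipase fell and endothelial lipase rose in shCHROME cells, a 1.74-fold decrease of LIPC beside a 1.97-fold increase of LIPG. Among the 7, LIPC, ANGPTL4 and LCAT were the 3 that fell, LIPG was the 1 that rose, and 3 were not called (MTTP, PLTP and CETP). Over all genes tested 6.87% fell and 3.64% rose by limma at an adjusted p under 0.05, 10.5% in all. On the recovered reads the same 3 genes fell and LIPG rose by edgeR, where 6.95% of all genes fell and 3.69% rose (10.6% in all). The same held by DESeq2, where 7.72% fell and 4.2% rose (11.9% in all) of the 13748 genes given an adjusted p. The 7 genes had a median log2 fold change of -0.07, where all genes tested had 0.01. The groups did not overlap for the 4 genes that passed the test, a separation that 28% of all genes tested showed, 15% downwards and 13% upwards. Fold changes are of shCHROME over EV on the log2(value + 1) scale, and a normalized count is a read count divided by the size factor of its library.

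LIPC, on chromosome 15 (ENSG00000166035), had 839.6, 837 and 809 normalized counts in EV replicates a, b and c and 413, 478 and 543 in shCHROME replicates a, b and c. The EV libraries lay within a narrow band, and each shCHROME library was below all of them. The mean went from 828 ± 17.3 to 478 ± 65.2 (SD, n = 3 each), which is 57.7% of the EV mean, with a log2 fold change of -0.80 (SE 0.10, limma adjusted p = 3.03e-05). Hepatic lipase ranked 67 by p among all genes tested. In bulk RNA, fewer cells of a kind and less transcript per cell cannot be told apart. The summed hepatocyte markers were also lower in shCHROME, as given above, and their part in the decreases of LIPC, ANGPTL4 and LCAT was not tested. LIPC remained lower under 15 of 15 alternative settings, with log2 fold changes between -0.90 and -0.70.

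LIPG, on chromosome 18 (ENSG00000101670), was measured from few reads, 43 to 66 per EV library and 82 to 127 per shCHROME library. Its normalized counts were 50.2, 60.3 and 42.8 in EV replicates a, b and c and 76.6, 131 and 101 in shCHROME replicates a, b and c. All shCHROME libraries were above all EV libraries, and shCHROME replicate b was the highest. The mean rose from 51.1 ± 8.79 to 103 ± 27.4 (SD, n = 3 each), with a log2 fold change of 0.98 (95% interval 0.52 to 1.43, limma adjusted p = 0.00704). Without shCHROME replicate b the log2 fold change was 0.79 and the call was lost (limma adjusted p = 0.0502, with 0.00137 as the lowest over 15 alternatives). Endothelial markers had a lower sum in shCHROME, as given above, and macrophage and blood markers a higher one; their part in the rise of LIPG was not tested.

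**Figure D1:**
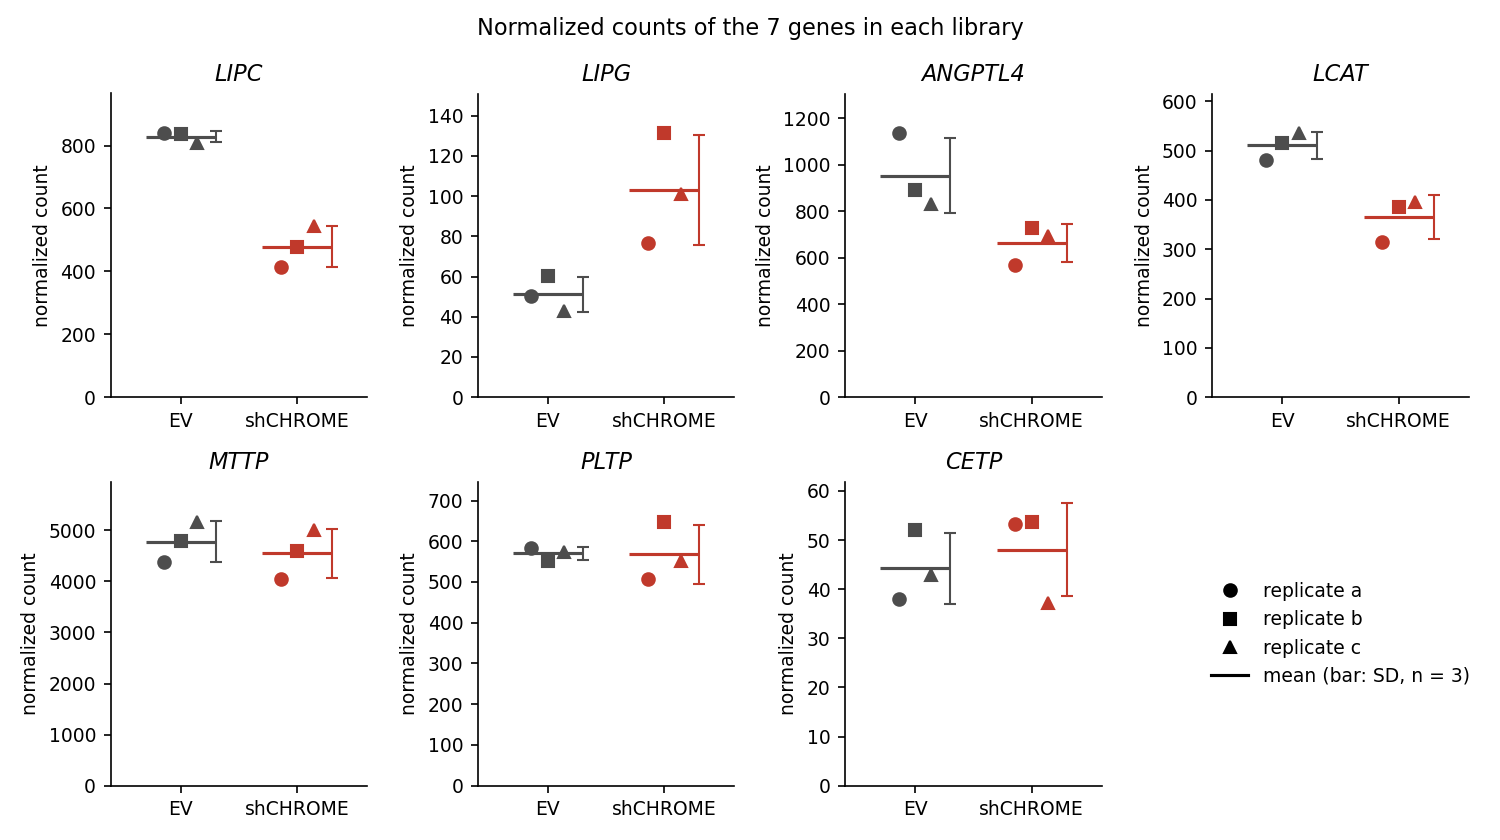
Normalized counts (vertical axes, from 0) of each of the 7 genes in EV and shCHROME; marker shapes stand for replicates a, b and c, horizontal lines for means and bars for the SD (n = 3). LIPC, ANGPTL4 and LCAT lie lower and LIPG higher in shCHROME without overlap, while MTTP, PLTP and CETP overlap.

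Because both lipases come from the same library, their ratio does not depend on how libraries were scaled. EV libraries held 16.7, 13.9 and 18.9 LIPC counts per LIPG count in replicates a, b and c, and shCHROME libraries 5.39, 3.64 and 5.38. The lowest EV ratio was thus above the highest shCHROME ratio. The log2 difference of LIPG minus LIPC moved from -4.01 ± 0.22 to -2.23 ± 0.32 (SD, n = 3 each), a shift of 1.78 or 3.43-fold towards LIPG. A two-sided exact permutation test gave p = 0.1, the smallest that 3 libraries against 3 allow. The pair was known to move in opposite directions before this measure was chosen. Neither gene overlapped between the groups, so separate ratios and the smallest p followed from the single-gene values. The ratio therefore restates those 2 results and adds no support to them.

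**Figure D2:**
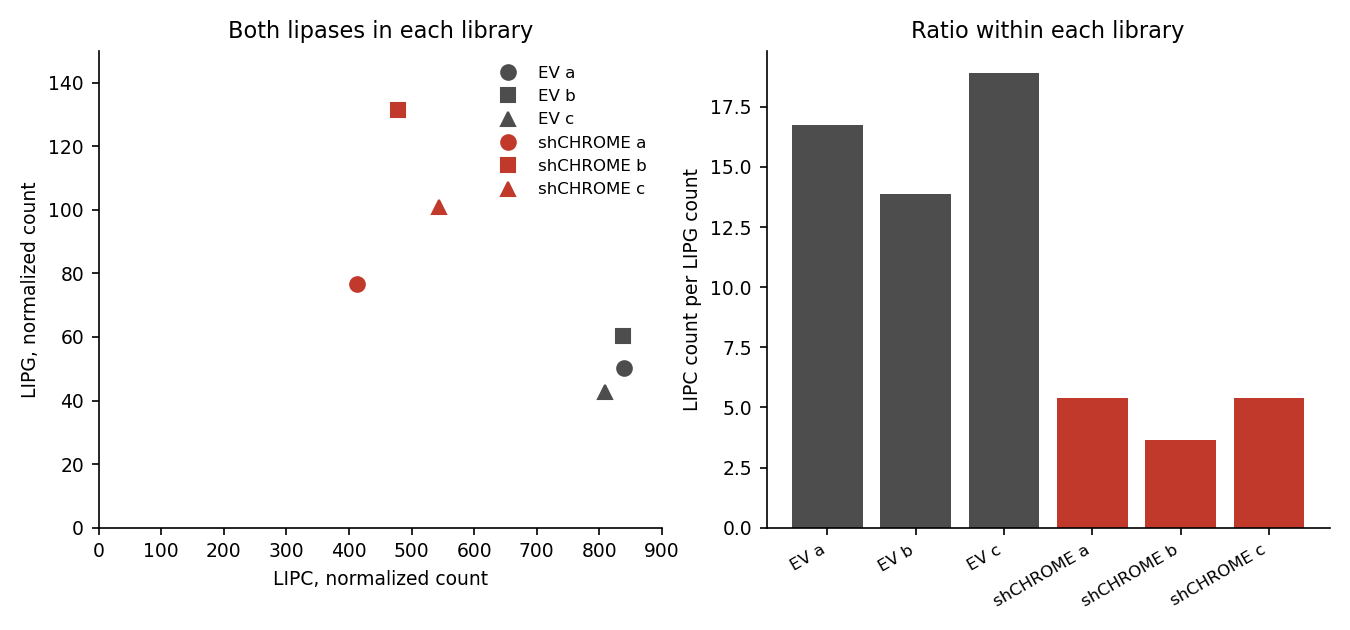
Left, LIPG against LIPC in normalized counts, 1 point per library; right, bars of the LIPC count per LIPG count in each library. EV libraries sit at high LIPC and low LIPG with ratios of 13.9 to 18.9, and shCHROME libraries at 3.64 to 5.39.

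ANGPTL4, the lipase inhibitor on chromosome 19 (ENSG00000167772), had 1136, 890.3 and 831 normalized counts in EV replicates a, b and c. In shCHROME replicates a, b and c it had 569.8, 728 and 692. The lowest EV library was above the highest shCHROME library, and EV replicate a stood above the other EV libraries. The mean fell from 953 ± 162 to 663 ± 82.9 (SD, n = 3 each), with a log2 fold change of -0.52 (95% interval -0.75 to -0.28, limma adjusted p = 0.0054). Over 15 alternatives its log2 fold change lay between -0.61 and -0.38 and the call was kept in each, with adjusted p up to 0.0372.

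LCAT, on chromosome 16 (ENSG00000213398), had 482, 515 and 536 normalized counts in EV replicates a, b and c and 314, 387 and 395 in shCHROME replicates a, b and c. The groups were separate, with shCHROME replicate a the lowest library. The mean fell from 511 ± 27.2 to 365 ± 44.8 (SD, n = 3 each), with a log2 fold change of -0.49 (95% interval -0.71 to -0.27, limma adjusted p = 0.00569). The call was kept in 15 of 15 alternatives, with adjusted p up to 0.0345.

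MTTP, on chromosome 4 (ENSG00000138823), was the most abundant of the 7, at 4371, 4792 and 5171 normalized counts in EV replicates a, b and c. It had 4047, 4595 and 5004 in shCHROME replicates a, b and c, so the groups overlapped. The means were 4778 ± 400.2 and 4549 ± 480.3 (SD, n = 3 each). The log2 fold change was -0.07 with a 95% interval of -0.23 to 0.09 (limma adjusted p = 0.611), so a decrease beyond 1.17-fold lies outside the interval.

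PLTP, on chromosome 20 (ENSG00000100979), had 584, 551 and 575 normalized counts in EV replicates a, b and c and 506, 648 and 551 in shCHROME replicates a, b and c. The EV libraries fell inside the span of the shCHROME libraries. The means were 570.0 ± 17.0 and 568 ± 72.6 (SD, n = 3 each), with a log2 fold change of -0.01 (95% interval -0.21 to 0.19, limma adjusted p = 0.967). CETP, on chromosome 16 (ENSG00000087237), had only 34 to 57 reads per EV library and 35 to 57 per shCHROME library. Its normalized counts were 37.9, 52.1 and 42.8 in EV replicates a, b and c and 53.2, 53.8 and 37.2 in shCHROME replicates a, b and c, which overlap. With means of 44.3 ± 7.21 and 48.1 ± 9.41 (SD, n = 3 each) the log2 fold change was 0.11, with a 95% interval from -0.39, a 1.31-fold decrease, to 0.61, a 1.52-fold increase (limma adjusted p = 0.838).

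**Figure D3:**
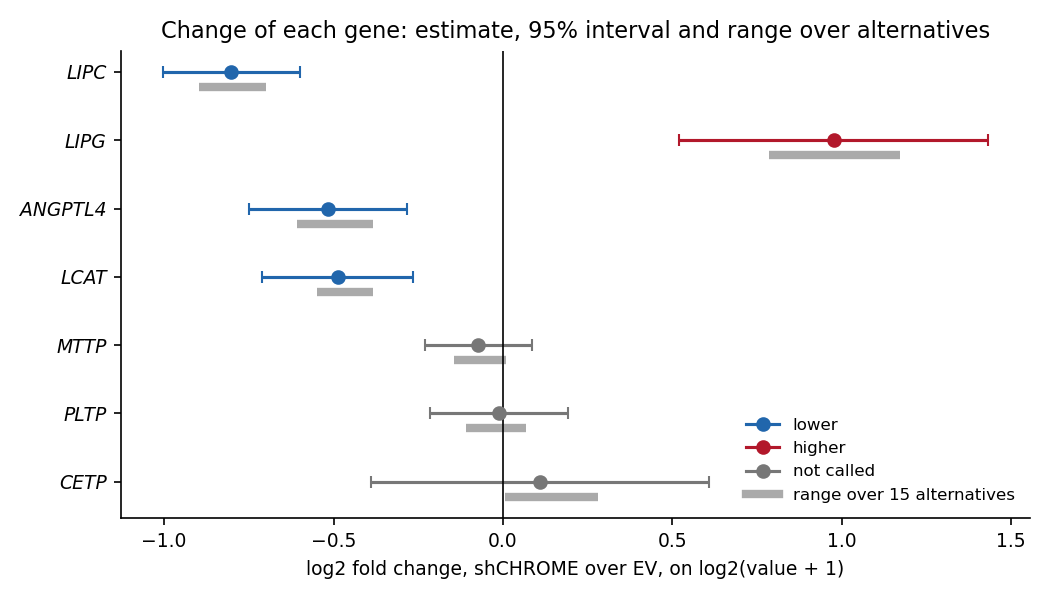
Log2 fold change of shCHROME over EV (horizontal axis) for each gene; points are limma estimates, whiskers 95% intervals and grey bars the range over 15 alternative settings. LIPC (-0.80), ANGPTL4 (-0.52) and LCAT (-0.49) lie below 0, LIPG (0.98) above, and the whiskers of MTTP, PLTP and CETP cross 0.

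The authors' deposited table gave adjusted p-values under 0.05 for the same 4 genes. Its log2 fold changes, another measure than the limma values above, were -0.68 for LIPC, -0.41 for ANGPTL4, -0.41 for LCAT and 0.46 for LIPG, with authors' adjusted p of 3.24e-11, 0.00379, 0.000872 and 0.00809. For MTTP, PLTP and CETP the authors' deposited table gave adjusted p of 0.747, 0.992 and 0.901.

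The spread among replicates differed between genes and groups. In EV the SD was 2.09% of the mean for LIPC and 2.98% for PLTP, against 17.2% for LIPG, 17.0% for ANGPTL4 and 16.3% for CETP. In shCHROME the SD was 13.6% of the mean for LIPC, 12.8% for PLTP and 26.6% for LIPG. Within shCHROME, replicate a was the lowest library for 6 of the 7 genes, CETP being the exception, and replicate b the highest for LIPG, ANGPTL4, PLTP and CETP. Without shCHROME replicate a the same 3 genes fell and LIPG rose, with the log2 fold change of LIPG at 1.17.

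Levels of different genes were compared per kilobase of merged exons, with exon lengths from GENCODE release 29. In EV the order of levels was MTTP with 885 normalized counts per kilobase, ANGPTL4 with 384, PLTP with 224, LCAT with 195, LIPC with 159.8, CETP with 12.8 and LIPG with 3.90. Neighbours in that order did not overlap between EV libraries. In shCHROME the order was the same, but ANGPTL4, at 229.6 to 293 per kilobase, overlapped with PLTP, at 199 to 255. LIPC then stood at 92.2 ± 12.6 and LIPG at 7.85 ± 2.09 per kilobase (SD, n = 3 each). The merged exons of LIPG span 13112 bases, against 2482 to 5398 bases for the other genes, which lowers its value on this scale where long transcript forms are not used.

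Several of the 7 genes share ground with other genes, and the sources used here do not give the strand setting of the counting. PLTP overlaps CTSA, the lysosomal cathepsin A gene on the opposite strand, which went down from 4392 ± 60.9 normalized counts in EV to 3802 ± 69.5 in shCHROME (SD, n = 3 each, with an adjusted p of 0.02 by limma). LCAT overlaps the cotransporter gene SLC12A4 on the same strand, whose log2 fold change was 0.00 (95% interval -0.11 to 0.12). LIPC overlaps ALDH1A2 on the opposite strand, for which the EV libraries held 9 reads in sum and the shCHROME libraries 15, and MTTP overlaps the tRNA methyltransferase gene RG9MTD2 (TRMT10A), with a log2 fold change of -0.03. ANGPTL4 overlaps an annotated antisense gene on the opposite strand, and LIPC and MTTP overlap further annotated noncoding genes, for which no values are given here. Reads in shared stretches could be lost or assigned to either gene.

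Of the nearest measured protein-coding genes on either side of each of the 7 genes, 13 are reported. Among them 3 fell and none rose, namely ACAA2 beside LIPG, HERPUD1 beside CETP and CTSA beside PLTP, where 6.87% of all genes tested fell and 3.64% rose; with 13 genes no more is read from this count. Beside LIPG, ACAA2, a thiolase of mitochondrial fatty acid oxidation, had a log2 fold change of -0.30 (limma adjusted p = 0.00313), opposite in sign to its neighbour. The ribosomal protein gene RPL17, on the other side of LIPG, did not pass the test (log2 fold change -0.11, 95% interval -0.30 to 0.08). Beside LIPC, the water and glycerol channel gene AQP9 had -0.09 (95% interval -0.26 to 0.07) and the protease gene ADAM10 0.00 (-0.13 to 0.12). Beside ANGPTL4, KANK3 had -0.14 (-0.61 to 0.33) and RAB11B 0.06 (-0.19 to 0.31), and beside LCAT the proteasome gene PSMB10 had -0.03 (-0.21 to 0.15).

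The genes around the lipases were taken from 9 of 10 fixed lists that had tested members, with 107 genes tested in all. Of these 29 fell, or 27.1%, and 4 rose, or 3.74%, beside 6.87% and 3.64% over all genes tested. The lists were chosen with earlier results of these data known and were not matched to all genes in abundance. The shares are therefore a description and not a test. Other secreted members of the lipase family gave almost no reads: all 8 were under the filter, with LIPH at 11 reads summed in EV and 1 in shCHROME and PLA1A at 11 and 3. Among lipase maturation factors, processing proteases and apolipoprotein cofactors, 2 of 12 fell, 1 rose and 9 were not called, with a median log2 fold change of -0.09. FURIN, a proprotein convertase that cleaves endothelial lipase and angiopoietin-like proteins, went up from 2007 ± 366 normalized counts in EV to 2953 ± 178 in shCHROME (SD, n = 3 each, with an adjusted p of 0.000599 by limma). APOA5, an apolipoprotein that promotes clearance of triglyceride, went down from 3367 ± 222 to 2499.8 ± 158 (limma adjusted p = 0.000424). APOH fell with a log2 fold change of -0.23, a call lost without EV replicate b or EV replicate c (adjusted p up to 0.0628, limma). The lipase maturation factor LMF1 was at -0.34 on the log2 scale (95% interval -0.70 to 0.03) and LMF2 of 0.06 (-0.07 to 0.20). The lipase cofactor APOC2 was listed at 0 in each library, and whether reads of it were lost in counting was not tested.

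Of 6 tested angiopoietin-like genes outside ANGPTL4, 2 fell, 0 rose and 4 were not called. C19orf80, which encodes ANGPTL8, a feeding-induced partner in lipase inhibition, had 901, 926 and 913 normalized counts in EV replicates a, b and c. In shCHROME replicates a, b and c it had 557, 797 and 608, all below the EV libraries, with a log2 fold change of -0.50 (95% interval -0.72 to -0.28, limma adjusted p = 0.00486). ANGPTL8 thus fell by an amount close to that of ANGPTL4, at -0.52; the difference between them was not tested. ANGPTL1 was at 0.18 on the log2 scale (95% interval -0.28 to 0.64), ANGPTL2 of 0.19 (-0.16 to 0.54) and ANGPTL7 of -0.02 (-0.93 to 0.89). ANGPTL6, with 93 reads summed in EV and 50 in shCHROME, had -0.94 (-1.70 to -0.18) and missed the threshold (limma adjusted p = 0.112).

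Regulators and targets of the fasting response that includes ANGPTL4 included 8 of 15 that fell, 0 that rose and 7 that were not called, with a median log2 fold change of -0.23. PPARA, the nuclear receptor for fatty acids in liver, went down from 7016 ± 309 normalized counts in EV to 5689 ± 268 in shCHROME (SD, n = 3 each, with an adjusted p of 0.00234 by limma). Its partner RXRA fell with a log2 fold change of -0.42, the fatty acid binding protein gene FABP1 with -0.48 and the lipid droplet coat gene PLIN2 with -0.33. PPARD had 0.08 (95% interval -0.13 to 0.29), PPARG 0.06 (-0.10 to 0.21) and HIF1A 0.07 (-0.05 to 0.19), and none of these passed the test. The fasting hormone gene FGF21 was under the filter, with 10 reads summed in EV and 43 in shCHROME.

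Around MTTP, 3 of 14 tested genes of lipoprotein assembly and export fell, 0 rose and 11 were not called, with a median log2 fold change of -0.12. The genes that fell were SAR1B, the coat GTPase needed for chylomicron export, at -0.35, MIA3, a cargo receptor for large particles, at -0.29, and SURF4, a receptor for lipoprotein cargo, at -0.25. SAR1B went down from 5970.5 ± 133 normalized counts in EV to 4673 ± 230.0 in shCHROME (SD, n = 3 each, with an adjusted p of 0.000536 by limma). P4HB, the protein disulfide isomerase that is the other subunit of the MTTP complex, had -0.10 (95% interval -0.22 to 0.01), and the sorting receptor gene SORT1 0.04 (-0.08 to 0.15). KLHL12, an adaptor for ubiquitin ligation that acts on the export coat, was at 0.21 (95% interval 0.03 to 0.38) and missed the threshold (limma adjusted p = 0.133).

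Around LCAT, PLTP and CETP, 6 of 12 tested genes of HDL fell, 1 rose and 5 were not called, with a median log2 fold change of -0.27. APOA4, an apolipoprotein that activates LCAT, went down from 1467 ± 107 normalized counts in EV to 849 ± 127 in shCHROME (SD, n = 3 each, with an adjusted p of 2.38e-05 by limma). SAA4, an HDL-bound serum amyloid, rose from 142 ± 29.8 to 245 ± 31.9 (SD, n = 3 each, with an adjusted p of 0.00284 by limma). PON1, an HDL-bound esterase, fell with -0.98, a call lost without EV replicate b (limma adjusted p = 0.0834). ABCA1, the exporter that starts HDL formation, fell with -0.24, a call lost without EV replicate c (limma adjusted p = 0.0591). APOM, at -0.29 (95% interval -0.52 to -0.06), and APOA2, at 0.17 (0.03 to 0.32), missed the threshold with limma adjusted p of 0.0994 and 0.125. Of 10 relatives of PLTP and CETP in the lipid-binding BPI family, 2 were tested and both fell: BPIFB2 with -0.36, and BPIFB6 with -1.30 from 104 reads summed in EV and 42 in shCHROME. The call of BPIFB6 was lost without EV replicate b, EV replicate c or shCHROME replicate c (limma adjusted p up to 0.092).

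**Figure D4:**
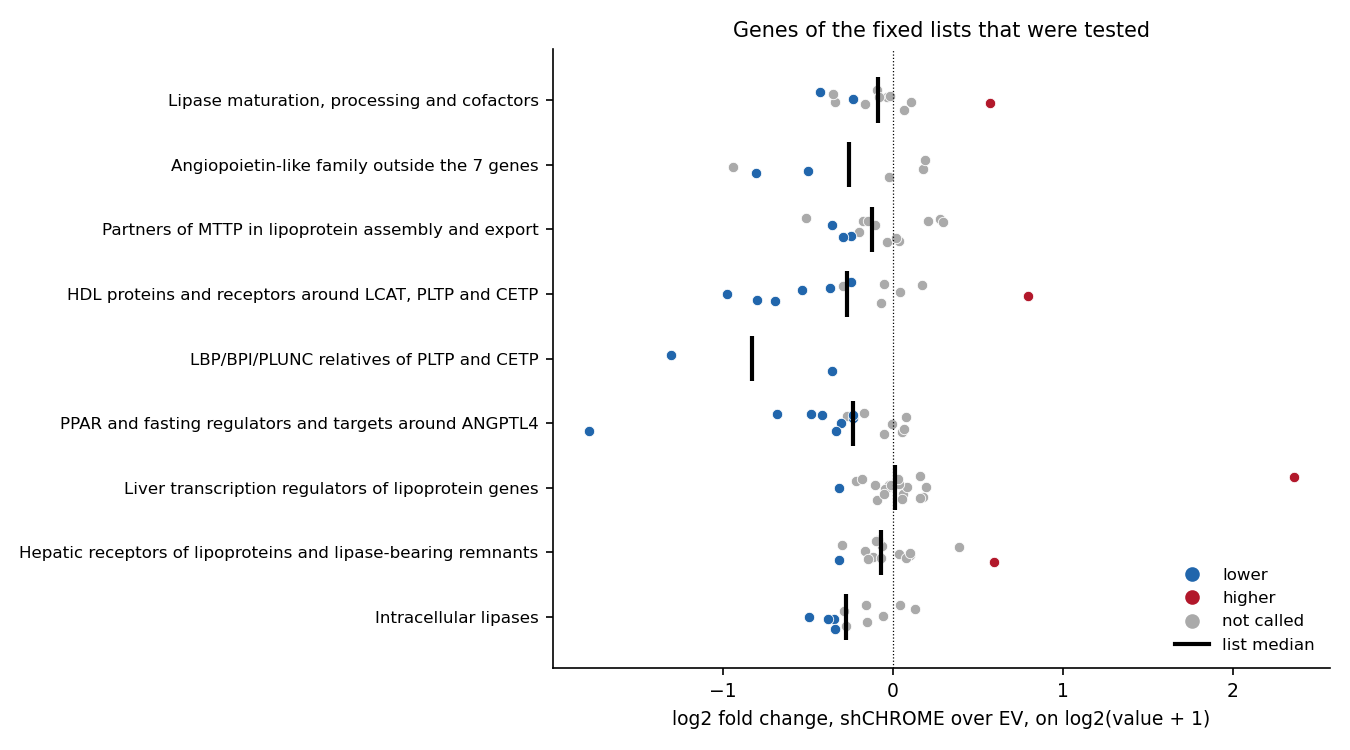
Log2 fold change of shCHROME over EV (horizontal axis) for each tested gene of 9 lists; points are genes, coloured by whether they were lower, higher or not called by limma, and vertical bars are list medians. The HDL list holds 6 lower calls of 12 genes and the fasting list 8 of 15, while 18 of 20 liver regulators were not called.

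Of 20 transcription regulators of lipoprotein genes, 1 fell, 1 rose and 18 were not called, with a median log2 fold change of 0.01. HNF4A, a master regulator of hepatocyte genes, had -0.03 (95% interval -0.16 to 0.10), and the oxysterol receptor NR1H3 had -0.22 (-0.40 to -0.04, limma adjusted p = 0.125). ESRRA, a nuclear receptor of energy metabolism, fell with -0.32 (limma adjusted p = 0.00274). NR5A2 rose from 9 reads summed in EV to 43 in shCHROME, a call lost without EV replicate b, shCHROME replicate b or shCHROME replicate c (limma adjusted p up to 0.14). Of 15 receptors of lipoproteins and remnants, 1 fell, 1 rose and 13 were not called. SDC1, a heparan sulfate proteoglycan that binds lipase-bearing remnants, fell with -0.31, and VLDLR rose with 0.60, a call lost without EV replicate b, shCHROME replicate b or shCHROME replicate c (limma adjusted p up to 0.085). Of 11 intracellular lipases and their regulators, 4 fell and none rose: the lysosomal acid lipase LIPA fell with -0.49, the phosphatidate phosphatase LPIN1 with -0.38 and the carboxylesterase CES2 with -0.35. PNPLA2, the main lipase of lipid droplets, had -0.16 (95% interval -0.29 to -0.02, limma adjusted p = 0.13).

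For each gene that changed, the 3 genes with the most similar profile over the 6 libraries were taken, by the root mean square difference of log2(value + 1) after centring each gene on its own mean, among genes with a mean of at least 100. These are descriptions over 6 libraries in 2 groups. Nearest to LIPC were AFP, the fetal plasma protein and 1 of the 10 hepatocyte markers, at 0.07, LTBP1 at 0.08 and KDELR3 at 0.09. AFP went down from 40873 ± 869 normalized counts in EV to 22369 ± 2208 in shCHROME (SD, n = 3 each). Nearest to LIPG was the imprinted noncoding RNA H19 at 0.19, followed by BRCA1 and OSTalpha at 0.28 each, farther than the neighbours of the other 3 genes. LIPG also had fewer reads than those 3 genes, and the part of this in its larger distances was not tested. Nearest to ANGPTL4 were RAB6B at 0.07, itself not called (limma adjusted p = 0.106), SECTM1 at 0.08 and MCTP2 at 0.09. Nearest to LCAT were PKLR, the liver pyruvate kinase, RASSF5 and C5orf4, each at 0.04.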

How the data were processed

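Total RNA of 6 HepG2 libraries was sequenced as read pairs after an Illumina TruSeq preparation, per the labels' protocols. The submitters' processing notes name STAR 2.5, featureCounts 1.5.2, DESeq2 ("3.4") and hg19. The authors deposited 1 table holding, per gene and library, a signal that is a read count divided by a size factor, beside their own mean, log2 fold change and p-value columns. Dropping 1288 repeated rows left 23368 genes. In every library 100% of genes gave whole reads within 0.01 after division by the value of 1 read. As planned for normalized values, the test was limma 3.58.1 (R 4.3.3, trend on mean level) on log2(value + 1), with group as the sole term. The filter was filterByExpr (edgeR 4.0.16) on recovered reads, and p-values were Benjamini-Hochberg adjusted over 14598 genes. The procedure was run on simulated counts with known changes. These had the same dispersion for all genes, so the run does not cover the spread between these libraries. The 15 alternatives were edgeR, DESeq2 1.42.0, 3 scalings, a pseudocount of 0.1, 2 filters, a block by replicate letter and 6 fits that omit 1 library. The 7 genes and the lists were chosen with earlier results of these data known. Named were the 7, up to 4 called genes per list by adjusted p, the 3 nearest profiles and the neighbouring genes; other list genes were named after their values were seen. Some list genes are counted but not reported by name.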

Additional observations from a re-analysis of the deposited data

How the results depend on the processing

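LIPC, ANGPTL4 and LCAT were lower in 15 of 15 alternatives and LIPG higher in 15 of 15; 1 call was lost, that of LIPG without shCHROME replicate b. With single libraries left out, the 3 lower calls among the 7 genes stayed at 3, and the higher calls ranged from 0 to 1. MTTP, PLTP and CETP passed the test in none of the 15. The log2 difference of LIPG minus LIPC moved by between 1.59 and 1.89 when each library was left out and by 1.79 with a pseudocount of 0.1. Over all genes, 532 were higher and 1003 lower. Scaling to library totals gave 936 higher and 702 lower, so that lower calls no longer outnumbered higher ones. Same-lettered libraries did not deviate together (correlations -0.05, -0.09 and 0.04 for a, b and c), and the fit with a replicate block gave 349 higher and 764 lower, with the calls of the 4 genes kept. Leaving out 1 library gave 245 to 540 higher and 600 to 1056 lower genes. Counts moved by over 1.5 times without EV replicate a (301 and 633), EV replicate c (324 and 650) or shCHROME replicate c (245 and 600). LIPG and CETP rest on at most 127 and 57 reads in any library, which limits their precision.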

Other observations

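The mean that the authors' deposited table gives for each gene differs from the mean of these 6 libraries. For LIPC the authors' deposited mean was 592, where the 6 libraries averaged 653, and for LIPG it was 65.4 beside 77.0. For ANGPTL4 it was 699 beside 808 and for MTTP 4133 beside 4663, while for PLTP it was 552 beside 569 and for CETP 47.0 beside 46.2. Over all genes with a mean of at least 100, this authors' mean was off by over 1% in 7907 of 11274. The reason for the difference is not analysed here.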
